A study of Mus musculus with 14 samples.

Results

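The T-box factor genes described here are Tbx1, Tbx2, Tbx3, Tbx5, Tbx18 and Tbx20. The measurements are peaks near them in an assay of PRDM16 binding in ventricles of E13.5 mouse embryos. They are a set of T-box family members, and 11 other T-box genes are described at the end. A PRDM16 peak was counted with a gene when that gene was the nearest protein-coding gene to the summit of the peak in the GRCm38 annotation. By this rule the 6 genes held 37 of the 17587 wild-type (WT) peaks, and each of the 6 had at least 1. Of the 37, 1 inside Tbx20 was also a peak in Prdm16 knockout ventricles, and whether PRDM16 was bound there was not tested. It stays in the counts below unless stated. The nearest gene gives the position of a peak and not the gene on which PRDM16 acts there.

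Binding was measured by chromatin immunoprecipitation and sequencing (ChIP-seq) with an antibody to PRDM16, a zinc-finger transcription factor. The series holds 14 samples of C57BL/6 mice, 7 of them ChIP libraries and 7 of them input chromatin without antibody. Conditional Prdm16 knockout (Prdm16cKO) ventricles gave 1 ChIP library and 1 input, and WT whole ventricles, labelled as mock-manipulated, gave 2 ChIP libraries and 2 inputs. The atria had been removed, and every one of these samples combined 3 hearts. The right ventricle (RV) and the left ventricle (LV) of WT embryos gave 2 ChIP libraries and 2 inputs each, and every such sample combined 10 to 12 ventricles. The Cre driver of the knockout, and thus the cells in which Prdm16 was deleted, are not given in the sources used here. Per the series text, knockout and input samples served to judge the specificity of the antibody.

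T-box factors bind DNA through a conserved T-box domain and act in the heart as activators or as repressors. Tbx5 and Tbx20 act in chamber myocardium, where Tbx5 works together with Nkx2-5 and Gata4 and is stronger in the left than in the right ventricle of the embryo. Tbx2 and Tbx3 are repressors that keep chamber genes off in the atrioventricular canal and the conduction system, Tbx18 marks the sinus horns and the epicardium, and Tbx1 acts in the second heart field that builds the outflow tract.

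Summits of WT peaks lay in the promoters of Tbx20 and Tbx18, and these sequences are shown because they are the bound stretches at a transcription start whose sequence was at hand. Promoter windows in the RefSeq table of GRCm38.p6 covered 3 of the 6 genes, Tbx20, Tbx18 and Tbx1. Each sequence runs 5′ to 3′ along the minus strand, on which both genes are transcribed, and ends at the last base before the start of transcription. The Tbx20 window is chr9:24774304-24774553 and the Tbx18 window is chr9:87731261-87731510. Capitals mark the summit of the WT peak with 15 bases on each side.
Tbx20: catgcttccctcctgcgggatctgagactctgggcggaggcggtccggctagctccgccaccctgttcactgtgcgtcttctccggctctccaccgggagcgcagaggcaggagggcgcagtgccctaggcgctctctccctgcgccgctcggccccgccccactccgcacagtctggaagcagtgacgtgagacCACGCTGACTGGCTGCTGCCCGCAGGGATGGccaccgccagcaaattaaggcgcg
Tbx18: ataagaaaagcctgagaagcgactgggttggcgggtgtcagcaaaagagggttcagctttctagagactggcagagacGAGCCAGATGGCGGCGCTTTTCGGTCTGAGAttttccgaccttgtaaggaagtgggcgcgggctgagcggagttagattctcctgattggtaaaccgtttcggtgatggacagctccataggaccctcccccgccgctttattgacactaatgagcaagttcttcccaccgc
The summit lay 40 bp before the start of Tbx20 and 157 bp before the start of Tbx18. Both windows of Tbx1 held no summit, so that 2 of 4 windows of T-box genes held one, against 3.21% of 32851 promoter windows. These 4 windows are of 3 genes, chosen with earlier results of these data known, so that this is no test. G and C made up 68.8% of the Tbx20 window and 54.0% of the Tbx18 window, where the median over all windows was 52.4%. A set of 5 short motifs were searched on both strands of the 250 bases, the T-box site AGGTGT, the GATA site AGATAA, the TEAD site GGAATG, the E-box CANNTG and GAAGATG, the start of a site of the PRDM16 relative EVI1. The Tbx20 window held none of them. The Tbx18 window held 1 E-box, CAGATG, 168 to 163 bp before the start and inside the capitals. The E-box was in 66.2% of all windows, AGGTGT in 11.8%, AGATAA in 9.99%, GGAATG in 12.6% and GAAGATG in 4.24%. Among the 1055 windows with a WT summit, the E-box was in 52.9%.

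PRDM16 peaks were many at Tbx20, Tbx3, Tbx5 and Tbx18 and single at Tbx1 and Tbx2. Tbx20 had 10 peaks, Tbx3 and Tbx5 had 9 each, Tbx18 had 7, and Tbx1 and Tbx2 had 1 each. Only 0.817% of 21900 protein-coding genes had at least 10 peaks, 1.15% had at least 9 and 2.18% had at least 7. At least 1 peak was found at these 6 of 6 T-box genes and at 32.3% of all protein-coding genes. The 6 were chosen with earlier results of these data known, so that this contrast is no test of the family. Of 11 other T-box genes, 2 had a peak. The stretches of genome nearest to the 6 genes added up to 1632 kb and held 2.27 peaks per 100 kb, against 0.679 per 100 kb over all chromosomes. This contrast in density rests on the same choice of genes and is no test of the family either. Density ran from 4.30 peaks per 100 kb at Tbx20 over 3.46 at Tbx5, 3.16 at Tbx1, 2.87 at Tbx2 and 1.72 at Tbx3 to 1.27 at Tbx18. The values of Tbx1 and Tbx2 rest on 1 peak each, in stretches of 31.7 and 34.8 kb. That of Tbx20 counts the peak also found in knockout ventricles.

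**Figure D1:**
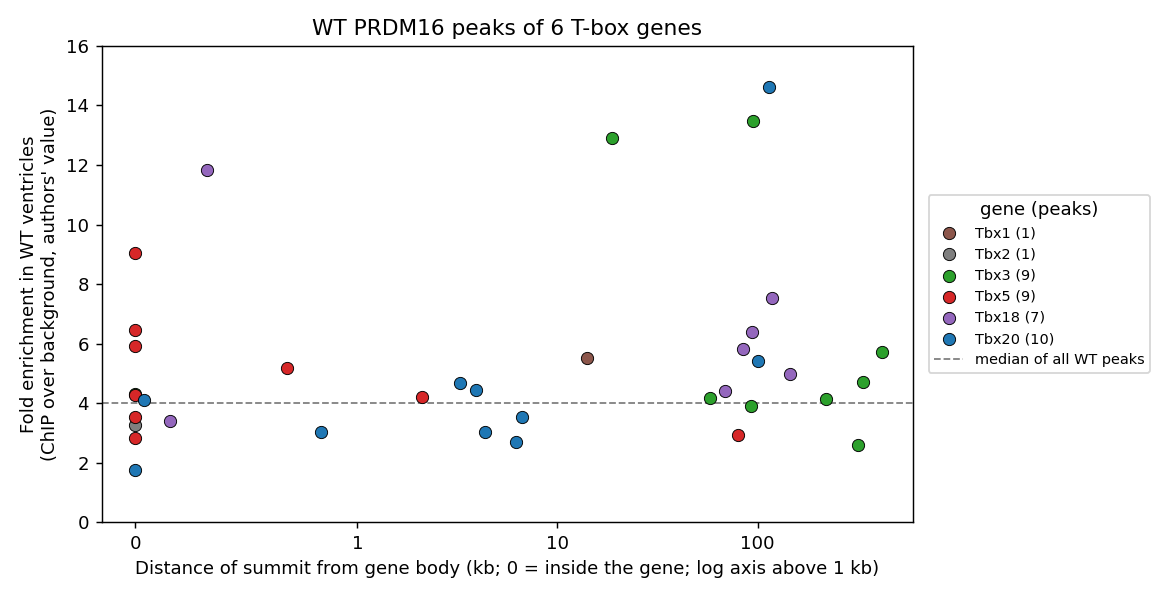
Fold enrichment of each of the 37 WT peaks against the distance of its summit from the gene body in kb (0 is inside the gene, log axis above 1 kb), with 1 colour per T-box gene and a dashed line at the median of all WT peaks. The 3 highest points lie outside their genes, a Tbx20 peak at 14.6 and a pair of Tbx3 peaks at 13.46 and 12.9.

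Fold enrichment of ChIP over background is the authors' own value for each peak. Its median was 4.41 over T-box peaks and 4.004 over all WT peaks, and 14 of 37 T-box peaks (37.8%) and 26.1% of all peaks reached a fold of 5. Peaks far from their gene lay mostly at Tbx3 and Tbx18. Of the 37, 15 (40.5%) lay more than 50 kb outside the gene, against 15.6% of all peaks, and 7 (18.9%) lay deeper than 1000 bp inside the gene, against 48.99% of all. Another 7 (18.9%) had the summit within 1000 bp of an end of the gene, against 15.9% of all, and 8 (21.6%) lay outside at up to 50 kb, against 19.5%. The 15 far peaks were 7 of the 9 at Tbx3, 5 of 7 at Tbx18, 2 of 10 at Tbx20 and 1 of 9 at Tbx5. Gaps to the next protein-coding genes were 905 and 112 kb at Tbx3 and 447 and 596 kb at Tbx18. The part of gene spacing in the share of far peaks was not tested. Widths were alike, with medians of 301 bp at T-box peaks and 298 bp at all peaks.

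Tbx20, which lies on the minus strand at chr9:24720812-24774303, held the peak of highest fold and the peak of lowest fold of the family, one upstream and the other inside the gene. The strongest, at chr9:24888210-24888956, had a fold of 14.6, ranked 130 among all WT peaks and lay 114134 bp upstream of the gene. A run of 7 peaks reached from 40 to 6619 bp upstream. The peak over the start, at chr9:24774223-24774552, had a fold of 4.12. A neighbour at chr9:24775036-24775264, 836 bp upstream, had a fold of 3.03. The other 5 summits of the run, at 3272, 3920, 4329, 6207 and 6619 bp, lay over the non-coding RNA gene Gm29824.

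Tbx3, at chr5:119670534-119684724, had its peaks spread over 421 kb, the widest span of the 6 genes. Its strongest peak, at chr5:119574917-119575673, had a fold of 13.46 and lay 95176 bp from an end of the gene, over the non-coding RNA gene AW549542. The next, at chr5:119651185-119652300, had a fold of 12.9, was 1116 bp wide and lay 18811 bp outside, over the non-coding RNA genes Tbx3os1 and Gm16064. A peak of fold 4.30 at chr5:119670448-119671072 covered an end of Tbx3, 235 bp inside it. The farthest Tbx3 summit lay 421016 bp from the gene, in the 905 kb between Tbx3 and its neighbour Med13l.

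Tbx5, at chr5:119796514-119885220, is the next protein-coding gene to Tbx3, and 112 kb separate them. Its 9 summits spanned 170 kb, and 5 of them lay deeper inside the gene. The strongest, at chr5:119857055-119857620 and 27846 bp inside, had a fold of 9.04. An end of the gene carried a pair of peaks. The first, at chr5:119796420-119796866 with its summit 141 bp inside, had a fold of 6.46, and the other, at chr5:119795735-119795949 with its summit 683 bp outside, had a fold of 5.17.

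Tbx18, on the minus strand at chr9:87702800-87731260, had 5 of its 7 peaks more than 50 kb away, over a span of 291 kb. Its strongest peak, of fold 11.8, lay 323 bp beyond the 3′ end of the gene at chr9:87702210-87702700. The promoter peak at chr9:87731337-87731536 was weaker, with a fold of 3.40. Tbx1, on the minus strand at chr16:18580979-18590671, had its single peak 14018 bp upstream at chr16:18604475-18604811, with a fold of 5.53. Tbx2, at chr11:85832615-85841948, had its single peak inside the gene at chr11:85838015-85838266, 3794 bp from an end, with a fold of 3.27.

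In Prdm16cKO ventricles the peak list held 330 peaks, and 1 of them lay at a T-box gene. That peak, at chr9:24745098-24745264 inside Tbx20, fell wholly within a WT peak at chr9:24745028-24745328, with summits 30 bp apart. At an overlap of 1 bp or more, knockout peaks thus met 1 of 37 T-box peaks (2.70%, 95% Wilson interval 0.479% to 13.8%) and 1.12% of all WT peaks. The fold enrichment was 6.87 in the Prdm16cKO list and 1.75 in the WT list, a ratio of 3.92, and −log10 q was 64.0 in Prdm16cKO and 9.01 in WT. With 1 knockout library the difference has no replicate check, and how replicates were pooled for each list is not stated.

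The shared Tbx20 site had the lowest fold and the most reads of the family. Only 0.466% of WT peaks had a lower fold. Normalized reads, which are reads times a factor for each library, were 110 and 125 in RV and 95.3 and 186 in LV, so that the RV values lay between the LV values. Such sites were rare in the WT list. Of the 152 WT peaks with a fold of at most 2, 138 (90.8%, Wilson 85.1% to 94.4%) overlapped a knockout peak, and among the other 17435 peaks 59 (0.338%) did. The 197 overlapping peaks had a median fold of 1.82, with median normalized reads of 104 in RV and 120 in LV, against 8.26 in both ventricles at the other WT peaks. The cause of the reads at these sites was not tested. For Tbx5, Tbx3 and Tbx2 the nearest knockout peak lay 4872, 4327 and 3244 kb away, for Tbx18 704 kb, for Tbx1 71.4 kb, and for the other 9 peaks of Tbx20 29.2 kb.

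**Figure D2:**
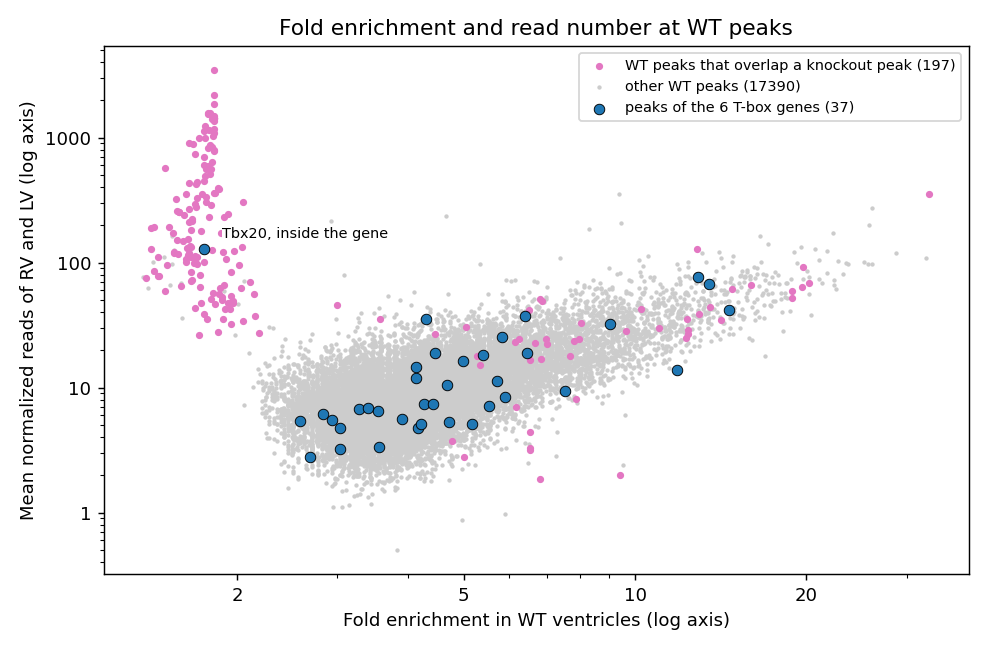
Mean normalized reads of RV and LV against fold enrichment at each WT peak, both on log axes, with the 37 T-box peaks in blue, the 197 peaks that overlap a Prdm16cKO peak in pink and other peaks in grey. The Tbx20 site inside the gene, at a fold of 1.75, sits among the overlapping peaks of low fold and many reads, and the other 36 T-box peaks lie in the grey cloud.

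RV was compared with LV at the WT peaks from the authors' deposited table of mean values per ventricle, from which whole reads of each library were recovered. Reads within WT peaks came to 281797 and 267808 in RV libraries A and B and to 330443 and 184244 in LV libraries A and B. The letters only name the libraries. A single T-box peak had 10 to 512 reads over the 4 libraries, with a median of 30.0, so that differences at most of these peaks rest on few reads. In dissected tissue, fewer cells with PRDM16 at a site and less PRDM16 per cell cannot be told apart. Nothing in the labels says whether the pools came from separate litters, and p-values measure the spread between these pools.

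Of the 37 T-box peaks, 36 did not pass a test between the ventricles, and the 1 that did, in limma, lay at Tbx5. In the authors' deposited table, 0 of 37 T-box peaks and 0 of 17587 regions had an adjusted p under 0.05, and 1 T-box peak, at Tbx5, had an unadjusted p under 0.05, against 0.483% of all regions. In limma on log2 of normalized reads plus 1, adjusted over all 17587 regions, the same Tbx5 peak was the 1 T-box region that was lower in RV, against 0.0284% of all regions, and 0 T-box regions and 0 of all regions were higher in RV. At an unadjusted limma p under 0.05 there were 3 of 37 T-box peaks, against 6.32% of all. By size, 4 of 37 (10.8%) had a log2 of at least 1 either way in the authors' deposited table, against 10.6% of all. Both RV libraries lay below both LV libraries at 6 of 37 (16.2%), against 17.9% of all, and above them at 3 of 37 (8.11%), against 17.6%. The median log2 of RV over LV in the authors' deposited table was −0.22 over T-box peaks and −0.0028 over all peaks. LV library A was above LV library B at 24 of 37 T-box peaks (64.9%), against 52.2% of all peaks. The median log2 difference was 0.26 over T-box peaks and 0.0188 over all peaks. At a fold of at least 5 it was 0.49 over 14 T-box peaks and 0.11 over all such peaks. The part of that spread in the T-box median was not tested.

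**Figure D3:**
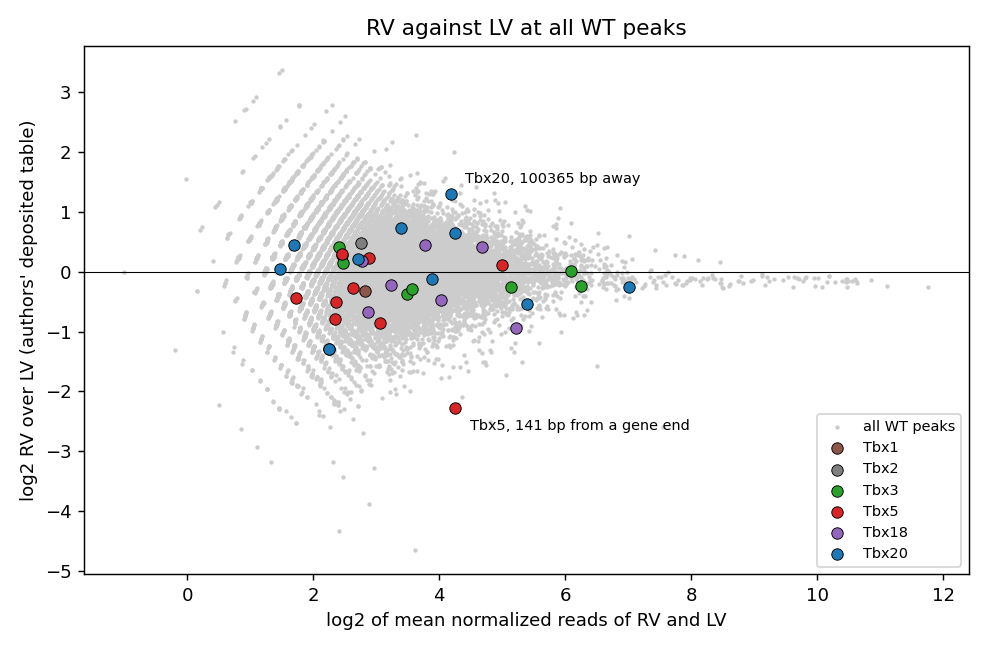
Log2 of RV over LV against log2 of mean normalized reads at every WT peak (grey), from the authors' deposited table, with the 37 T-box peaks coloured by gene. The lowest T-box point is the Tbx5 peak 141 bp from a gene end, at −2.27, and the highest is the Tbx20 peak 100365 bp away, at 1.30.

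At a peak at the end of Tbx5, chosen as the Tbx5 region of smallest p, PRDM16 ChIP reads were fewer in RV than in LV. This difference was called in limma and not in the authors' deposited table, and the call did not hold in every fit. The peak with its summit 141 bp inside had 5 and 8 reads in RV and 50 and 17 reads in LV. After normalization these were 4.33 and 7.72 in RV and 37.2 and 24.9 in LV. The groups did not overlap, which adds no support, since the peak was chosen by its p from these same values. Both RV libraries lay below both LV libraries at 17.9% of all regions. The authors' deposited table gave means of 6.52 in RV and 31.6 in LV, a log2 of −2.27 with an unadjusted p of 0.000885 and an adjusted p of 0.9998. limma gave a log2 of −2.21 (SE 0.402, n = 2 each, adjusted p = 0.0186).

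The same peak held a smaller share of the Tbx5 reads in RV than in LV, which is a description, since the peak was chosen as the Tbx5 region of smallest p. Of all reads at the 9 Tbx5 peaks, it held 7.14% (95% Wilson interval 3.09% to 15.7%) and 9.30% (4.79% to 17.3%) in RV and 37.3% (29.6% to 45.7%) and 23.3% (15.1% to 34.2%) in LV, and the intervals cover counting error only. Mean shares were 8.22% in RV and 30.3% in LV. The other 8 Tbx5 regions together had 56.3 and 75.2 normalized reads in RV and 62.5 and 82.0 in LV, and here the groups overlapped. At the peak 683 bp outside the same end, normalized reads were 2.60 and 3.86 in RV and 8.93 and 2.93 in LV, with a limma log2 of −0.58. The strongest Tbx5 peak, 27846 bp inside, had 32.0 and 33.8 in RV and 25.3 and 35.2 in LV, also overlapping. A weak peak inside the gene, 27082 bp from an end, had 1.73 and 2.89 in RV and 3.72 and 2.93 in LV, without overlap (limma log2 −0.40, SE 0.734, adjusted p = 0.967).

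The Tbx5 call was not kept in every fit. With a pseudocount of 0.1 in place of 1, the adjusted limma p was 0.125. A fit with 1 library left out has 1 library in a ventricle, which is assumed to vary like the pair of the other ventricle. Whether the call holds cannot be judged from such a fit. The log2 was between −2.56 and −1.85 whichever library was left out.

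Tbx20 showed values on either side. The Tbx20 region of smallest p lay at chr9:24874496-24875082, 100365 bp upstream. Normalized reads there were 28.6 and 22.2 in RV and 14.1 and 5.86 in LV. The groups did not overlap, with both RV libraries above both LV libraries, as at 17.6% of all regions. The authors' deposited table gave means of 25.9 in RV and 10.5 in LV with an unadjusted p of 0.0680, and limma gave a log2 of 1.36 (SE 0.401, adjusted p = 0.542). With 1 library left out, the limma log2 was between 0.79 and 1.93. The value of 1.93 was without LV library A, where LV is a single library of 4 reads. The peak 3920 bp upstream had 25.1 and 20.3 in RV and 12.7 and 16.1 in LV, again without overlap (limma log2 0.62, adjusted p = 0.810). The reverse order was seen 836 bp upstream, with 2.60 and 1.93 in RV and 5.21 and 7.33 in LV. The start of Tbx20 had 14.7 and 12.5 in RV, between the 23.8 and 5.86 of LV. The strongest Tbx20 peak had 31.2 and 36.7 in RV and 64.8 and 33.7 in LV, and these overlapped.

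Tbx18 also went both ways. The peak at chr9:87607927-87608880, 94375 bp from the gene, was the Tbx18 region of smallest p. It had 25.1 and 25.1 normalized reads in RV and 52.8 and 44.0 in LV. The groups did not overlap, with both RV libraries below both LV libraries, as at 17.9% of all regions. The authors' deposited table gave this peak a log2 of −0.93 with an unadjusted p of 0.0571. For limma the log2 was −0.91 (SE 0.318, adjusted p = 0.610). At a peak 144600 bp away both RV libraries also lay below both LV libraries (limma log2 −0.45, adjusted p = 0.888). The strongest Tbx18 peak, beyond the 3′ end, was the other way round, with 18.2 and 12.5 in RV and 11.9 and 10.3 in LV (limma log2 0.42, adjusted p = 0.912). The promoter peak had 7.79 and 5.79 in RV and 8.93 and 2.93 in LV, which overlapped.

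Tbx3 showed overlap of RV and LV where it was bound most. Its strongest peak had 66.7 and 68.5 normalized reads in RV, between the 80.4 and 54.2 of LV. The log2 of this peak was 0.0061 in the authors' deposited table and 0.033 in limma (SE 0.324). The wide peak 18811 bp outside had 67.5 and 71.4 in RV and 94.5 and 70.3 in LV. Values at the end of the gene were 32.0 and 30.9 in RV and 52.1 and 23.4 in LV. All of these overlapped. The Tbx3 region of smallest p, at chr5:119612577-119612846 and 57832 bp away over Tbx3os1, did not overlap, with 2.60 and 1.93 in RV and 6.70 and 5.86 in LV (limma log2 −1.16, SE 0.652, adjusted p = 0.807).

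**Figure D4:**
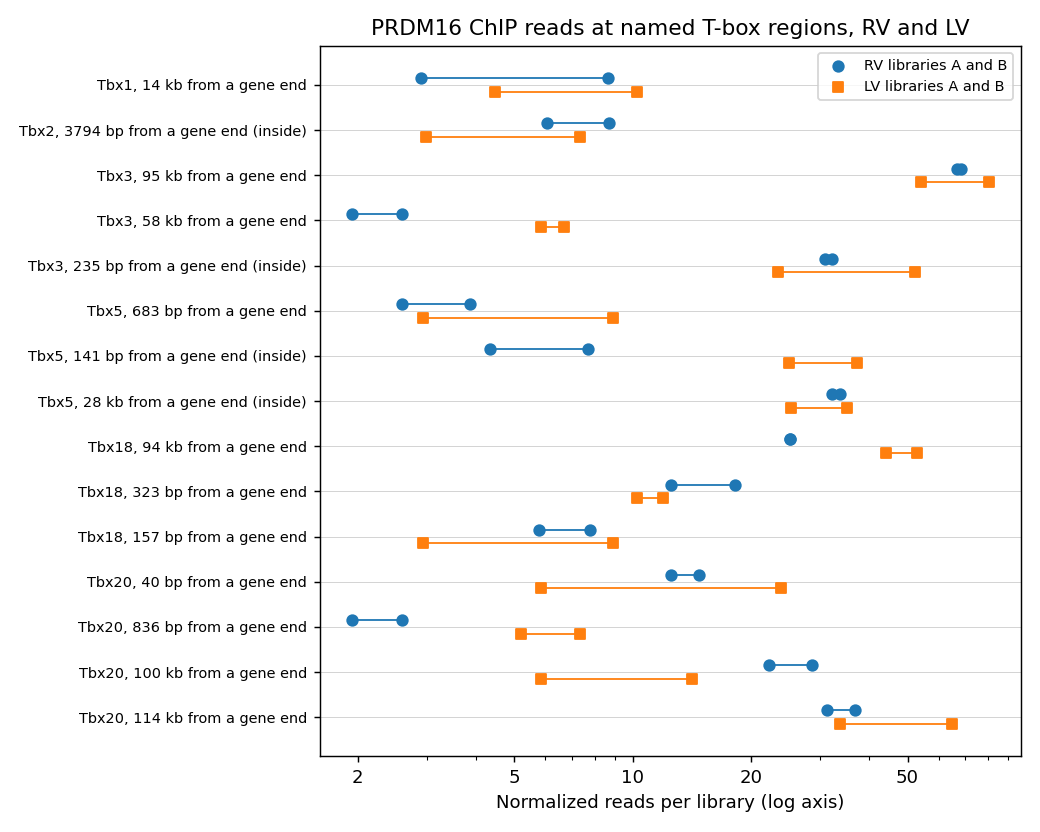
Normalized reads of each ChIP library (log axis) at the 15 named T-box regions, with RV libraries as blue circles above LV libraries as orange squares and a line that joins the libraries of a ventricle. RV and LV lie apart at 6 regions, among them the Tbx5 region 141 bp from a gene end with 4.33 and 7.72 in RV and 37.2 and 24.9 in LV, and overlap at the others.

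Summed over all peaks of a gene, 0 of the 6 T-box genes differed between the ventricles in limma at an adjusted p under 0.05, against 0.0424% of 7083 genes, and 1 of 6, Tbx5, had an unadjusted p under 0.05, against 6.66% of all. Tbx5 had 60.6 and 83.0 normalized reads in RV and 99.7 and 107 in LV, without overlap (log2 −0.54, SE 0.220, limma adjusted p = 0.655). Without the peak 141 bp inside, chosen as the region of smallest p, the log2 was −0.14 (SE 0.231, limma adjusted p = 0.971). Tbx18 had 106 and 99.4 in RV and 146 and 101 in LV (log2 −0.24, SE 0.216), which overlapped.

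The sums of the other 4 genes overlapped as well. Tbx3 had 199 and 214 in RV and 266 and 198 in LV (log2 −0.15, SE 0.209). Tbx20 had 229 and 252 in RV and 237 and 268 in LV (log2 −0.07, SE 0.205), and without the site shared with the knockout it had 119 and 126 in RV and 142 and 82.0 in LV, where the log2 was 0.18 (SE 0.201). Both log2 values were smaller than their SE, so that no direction can be read for Tbx20. At the single peak of Tbx1 there were 8.66 and 2.89 in RV and 4.47 and 10.3 in LV (log2 −0.35, SE 0.605). Tbx2 had 6.06 and 8.68 in RV and 2.98 and 7.33 in LV (log2 0.52, SE 0.587). Adjusted limma p-values of these 4 sums and of Tbx18 were between 0.919 and 0.983.

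**Figure D5:**
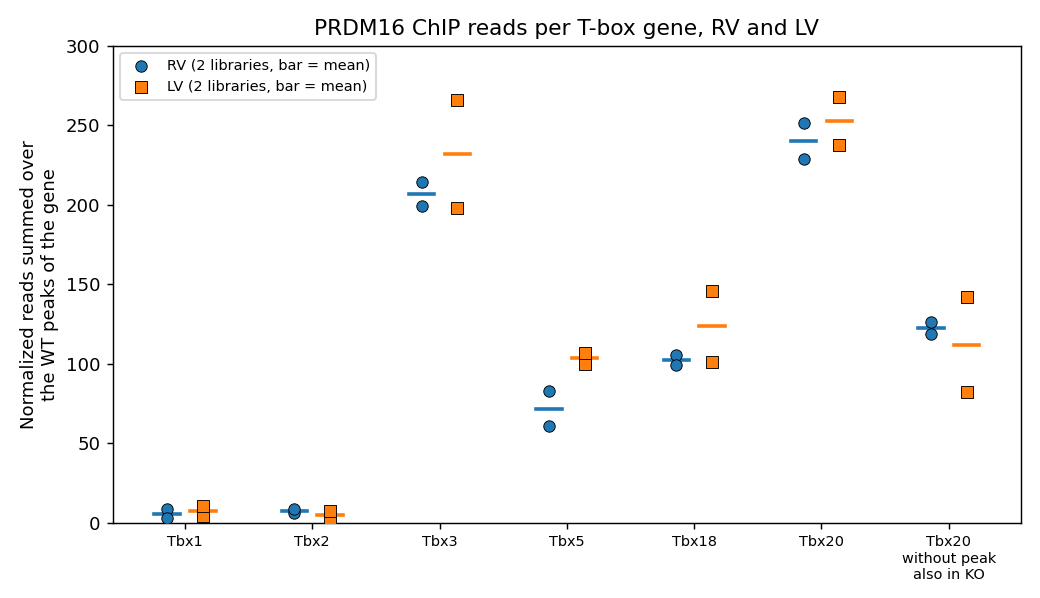
Normalized reads summed over the WT peaks of each T-box gene, with 1 point per ChIP library, RV (circles) left of LV (squares) and a bar at the mean of 2 libraries, and Tbx20 shown again without the peak shared with the knockout. Of the 6 genes, the RV and LV points lie apart at Tbx5, with 60.6 and 83.0 in RV and 99.7 and 107 in LV.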

How the data were processed

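PRDM16 ChIP and input libraries were sequenced from E13.5 mouse ventricles. Per the labels, crosslinking used EGS and formaldehyde, and fragments were selected by size. The submitters' processing notes name MACS2 2.1.1.20160309, BWA 0.7.12-r1039, DESeq2 and HOMER without a role, and as builds mm10 and GRCm38.

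The deposited peak lists give for each peak a score (10 times the −log10 q, rounded down), a ratio of ChIP to background (fold enrichment), the −log10 p and the −log10 q. The authors' deposited table gives a signal per ventricle (mean normalized reads plus 0.5), log2 of RV over LV, log2 of the mean, a p-value and a q-value. The authors' test and filters are not given in the sources used here. Total reads of the libraries and the inputs were not used here, and the files hold no transcript levels against which the tissue could be checked.

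Values of each ventricle were means over its libraries of whole reads, each scaled by 1 factor, plus 0.5. Whole reads were recovered in 100% of regions (tolerance 1e-07), and 1 read was worth 0.866 and 0.965 normalized reads in RV and 0.744 and 1.47 in LV. The letters A and B do not tell which labelled replicate a library is.

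Summits were assigned to the nearest of 21900 protein-coding genes of a RefSeq table (GRCm38.p6), which gives no strand. Strand is given only for genes in the promoter table. limma 3.58.1 in R 4.3.3 compared RV with LV (2 libraries each, mean-variance trend, pseudocount 1, no covariate), with Benjamini-Hochberg adjustment over all regions or genes and a threshold of 0.05. limma's log2 is on the log2(normalized reads + 1) scale and understates low regions. The procedures were tested on simulated data. Other steps used Python 3.11.15 with scipy 1.17.1, pandas 2.3.3, matplotlib 3.10.9 and numpy 2.4.6.

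All 6 genes are named, with the strongest peak, peaks within 1000 bp of a gene end and the region of smallest p of each, in the companion lists the genes of strongest peak and smallest p, and 2 genes nearest in pattern. The genes nearest in pattern to Tbx2 are not reported here. Other peaks are named as parts of a run or by their lack of overlap, after their values were seen. The members and lists were chosen with earlier results of these data known. Alternatives were other pseudocounts, a minimum of reads, other scaling, stricter peaks, distance limits and leaving out each library. Those without the knockout-overlapping peaks and without 1 Tbx5 region were added after the data were seen.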

Additional observations from a re-analysis of the deposited data

How the results depend on the processing

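Of 37 T-box peaks, 14 had a fold of at least 5, and 20 remained within 10000 bp and 22 within 50000 bp of the gene. The authors' table called 0 T-box regions and limma 1. With a pseudocount of 0.1 limma called 0. Fits with 1 library left out have 1 library in a ventricle, assumed to vary like the other pair, so that their calls are not counted here. No T-box gene sum was called under the other alternatives run.

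Leaving out 1 library turned the direction of several limma log2 values that no fit called. For summed reads the log2 ranged from −1.01 to 0.30 for Tbx1 and from −0.0099 to 1.06 for Tbx2, which are also the values of their single regions. It ranged from −0.36 to 0.062 for Tbx3, from −0.51 to 0.019 for Tbx18 and from −0.16 to 0.015 for Tbx20, whose sum was 0.18 without the knockout-overlapping site. Among regions the range was −0.25 to 0.31 at Tbx3 95176 bp, −0.71 to 0.41 at Tbx3 235 bp, −1.25 to 0.089 at Tbx5 683 bp and −0.094 to 0.37 at Tbx5 27846 bp. It was −0.36 to 0.98 at Tbx18 157 bp, −0.77 to 1.09 at Tbx20 40 bp and −0.92 to 0.0046 at Tbx20 114134 bp. The cause was not tested. Of the values for single regions and genes under the alternatives, 17 reversed in direction and the others kept it.

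The median log2 over T-box peaks in the authors' table, −0.22, was −0.28 at a fold of at least 5 and −0.17 without the knockout-overlapping peak. The median of limma log2, −0.12, was −0.08 with library totals as scaling and −0.20 to 0.05 with 1 library left out. No paired analysis was possible because the recovered libraries carry no replicate numbers. With 2 libraries per ventricle and a median of 30.0 reads per T-box peak, the reads limit the precision of each value.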

Other observations

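Beside the 6 genes, 3 further lists of the T-box pathway were described. They were chosen with earlier results of these data known, so that their counts are no test. Of 11 other T-box genes, 2 had a WT peak, where 32.3% of 21900 protein-coding genes had one. Tbx4, a hindlimb factor, had 1 peak and Tbx19, a factor of pituitary corticotrophs, had 6. At the Tbx19 region of smallest p there were 41.7 normalized reads in RV and 16.7 in LV, with a log2 of 1.32 and an unadjusted p of 0.0152 in the authors' deposited table (limma adjusted p = 0.290). Of 13 partners of T-box factors, 12 had a peak, and Sall4 had none. The strongest of their 75 peaks was at Gata5, with a fold of 10.8. The single peak of Hand1, a factor of the left ventricle, had 6 and 8 reads in RV and 36 and 25 in LV, without overlap, and was lower in RV (limma log2 −2.14, SE 0.388, adjusted p = 0.0186). It was the 1 partner gene of 12 that passed in limma, against 0.0424% of 7083 genes, and its region was the 1 of 75, against 0.0284% of all regions being lower in RV. Both counts rest on this same peak. All 16 known targets of T-box factors had peaks, 80 in total. Ryr2, the calcium release channel of the sarcoplasmic reticulum, had the strongest, with a fold of 25.2, and its region of smallest p had 6 and 5 reads in RV and 18 and 12 in LV (limma adjusted p = 0.573). Among the other T-box genes and among the targets 0 regions passed in limma, and 2 of 7 and 7 of 80 had an unadjusted p under 0.05, against 6.32% of all. Median log2 of RV over LV was 0.25 at the other T-box genes, −0.05 at partners and −0.04 at targets, and 0 of their peaks overlapped a knockout peak, against 1.12% of all WT peaks. That 0 allows a share of up to 35.4% of the 7 peaks, 4.87% of the 75 and 4.58% of the 80 (upper Wilson limits).

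Genes most like Tbx1, Tbx3, Tbx5, Tbx18 and Tbx20 in number of peaks, highest fold and log2 of RV over LV were found among 7077 genes by the distance in those 3 measures, each divided by its SD. They were Psap (0.0115) and Fgd3 (0.0172) for Tbx1, S1pr1 (0.164) and Fign (0.261) for Tbx3, D430042O09Rik (0.208) and Sulf2 (0.261) for Tbx5, Myc (0.105) and Ahnak (0.196) for Tbx18, and Hunk (0.177) and Tgfbr3 (0.226) for Tbx20.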
